A study of Mus musculus with 9 samples.

Results

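The adipose progenitor surface markers described here are 10 mouse genes, Pdgfra, Pdgfrb, Ly6a, Cd34, Dpp4, Pi16, Cd55, Icam1, Vcam1 and Procr. They were taken by symbol from a table of 55359 genes, and each symbol matched 1 row. All 10 passed the filter on low counts that left 14714 genes for testing. The rule that takes them uses their symbols and no measured value, although the set was proposed with earlier results of these data known. The cells were mouse preadipocytes of inguinal white adipose tissue (iWAT), a subcutaneous fat depot, grown in culture. Ribosome footprints, the stretches of mRNA that ribosomes shield from RNase, were sequenced in 3 libraries of non-induced cells (day 0), 3 libraries after 4 days of beige adipocyte differentiation and 3 libraries after 8 days. The labels used here name no strain, age, genotype or sort. Differentiation was induced with dexamethasone, 3-isobutyl-1-methylxanthine, indomethacin, insulin, triiodothyronine and rosiglitazone, and the maintenance medium that followed no longer held dexamethasone, 3-isobutyl-1-methylxanthine or indomethacin. The study asked how translation changes while beige fat cells form. Whether replicates of a day came from separate animals or cultures is not stated, so each p-value reflects only how far these libraries spread, which may be technical.

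Fat cell precursors lie in the stroma of adipose tissue and are usually isolated by antibodies against proteins on their surface. PDGFRα, the product of Pdgfra, and SCA1, the product of Ly6a, are widely used to select them, often with CD34. DPP4, PI16 and CD55 mark an interstitial population held to be early and multipotent, whereas ICAM1 and VCAM1 mark precursors held to be closer to fat cells. PROCR, the endothelial protein C receptor, marks progenitors in several tissues. Footprints of these genes report the mRNA being translated, not the amount of protein at the cell surface.

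The libraries held 30823028 to 38994892 counts each. Day 4 replicate 2 and day 8 replicate 3 stood apart from the other libraries of their day. Within day 4, pairs with replicate 2 had chi-squares per gene of 230 and 257 against 24.0 for the other pair. Within day 8, pairs with replicate 3 had 74.4 and 79.5 against 16.9. Fat cell genes had the direction that the labels call for: all 10 listed genes, among them Adipoq, Pparg and Fabp4, were higher at both later days, and Adipoq stood at 9.96 to 11.2 CPM at day 0, 2730 to 3600 CPM at day 4 and 1862 to 2239 CPM at day 8. In day 4 replicate 2, Pparg stood at 209 CPM against 354 and 360 CPM in the other libraries of that day. CPM are normalised read counts, given per 1000000 counts of the library's TMM-scaled total. Levels are mainly compared for 1 gene between libraries. No lengths were used, so levels set between genes, as in ratios and sums, also depend on the length of each coding sequence.

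Promoters of 7 of the 10 genes were found in the RefSeq promoter table (assembly GRCm38.p6), and those of Icam1 and Procr are shown because each holds a short motif, in capitals, that few promoters hold. They run 5′ to 3′ on the gene's strand over the 200 bases before the annotated start, Icam1 at chr9:21015740-21015939 (plus strand) and Procr at chr2:155751017-155751216 (plus strand).
Icam1: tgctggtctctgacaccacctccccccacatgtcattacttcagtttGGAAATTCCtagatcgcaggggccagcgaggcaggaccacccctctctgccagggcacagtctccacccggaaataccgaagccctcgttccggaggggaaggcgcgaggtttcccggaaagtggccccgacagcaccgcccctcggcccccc
Procr: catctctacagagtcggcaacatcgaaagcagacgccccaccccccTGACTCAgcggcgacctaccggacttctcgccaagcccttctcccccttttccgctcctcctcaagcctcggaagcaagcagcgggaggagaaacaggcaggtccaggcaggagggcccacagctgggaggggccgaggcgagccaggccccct
The capitals in Icam1 are GGAAATTCC, a sequence of the kB type that NF-kB factors recognise, which starts 153 bases before the annotated start. It was searched on both strands of the 250 bases before each start and was found in 0.286% of 32851 promoters. This motif was added after a wider NF-kB motif, found in 9.55% of promoters, gave no match among the 7. The capitals in Procr match TGANTCA, the AP-1 motif, which starts 154 bases before the annotated start and was found in 6.75% of promoters. Of the other motifs searched, TATAAA was found in Dpp4 (12.4% of promoters) and CCAAT in Pi16 (33.8% of promoters), and the CArG motif (1.47%) in none of the 7. A match is a description of the sequence, and no binding was measured here.

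At day 8 the set stood lower than at day 0 and held no gene that was higher. Relative to day 0, 5 of the 10 genes were lower at day 4 and 2 were higher (edgeR, adjusted p under 0.05), where 28.4% and 29.8% of all tested genes were lower and higher. The median log2 fold change of the 10 genes was -0.80, and that of all tested genes -0.02. At day 8, 7 of 10 were lower than at day 0 and 0 higher, against 33.5% and 34.2% of all tested genes, with medians of -1.76 and -0.01. Between day 4 and day 8, 5 of 10 were lower and 0 higher, against 17.1% and 14.7%, with medians of -0.76 and -0.02. The count of 2 higher at day 4 is not above the background share. The counts of 0 higher were also 0 at an unadjusted p under 0.05 and with DESeq2 and limma-voom, while 8 of 10 were lower at day 8 than at day 0 by each of these. Both comparisons against day 0 share the day 0 libraries, and those with day 4 share the day 4 libraries. With both of these libraries (day 4 replicate 2, day 8 replicate 3) left out, an alternative chosen after seeing the data, 6 were lower and 2 higher at day 4. In that fit 9 were lower at day 8 than at day 0, and 6 were lower at day 8 than at day 4. All shares of tested genes given in this report are from the fit of all 9 libraries. They are not the background of this count or of later counts without these libraries, whose shares are not given here. In a bulk culture, fewer cells of a kind and less footprint RNA per cell cannot be told apart.

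**Figure D1:**
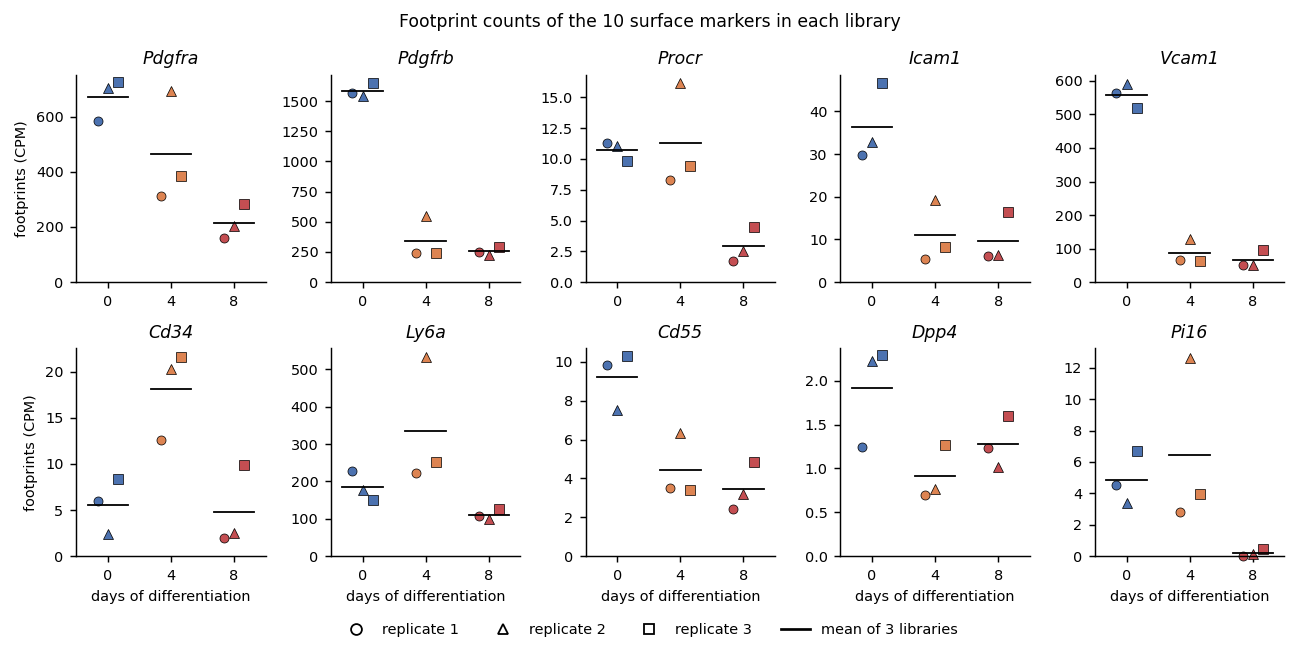
Footprint counts of each gene (CPM, vertical axis from 0) against day of differentiation, with 1 symbol per library and a line at the mean of 3 libraries. Pdgfrb and Vcam1 are high in the 3 day 0 libraries and low in the other 6. All day 4 libraries of Cd34 lie above its others, and Ly6a, Pi16 and Procr are highest in day 4, replicate 2. The triangle of that library lies above the other libraries of its day for 8 of the 10 genes.

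The PDGF receptors are tyrosine kinases that bind platelet-derived growth factors, and they followed different courses. Pdgfrb (ENSMUSG00000024620) stood at 1570, 1543 and 1649 CPM at day 0, at 241, 545 and 242 CPM at day 4 and at 250, 224 and 294 CPM at day 8, in the order of replicates 1 to 3. Every later library lay below every day 0 library, and the highest later value was that of day 4 replicate 2. Its mean fell from 1587 ± 55.4 to 343 ± 175 CPM at day 4 (SD, n = 3), with a log2 fold change of -2.21 ± 0.30 (SE; edgeR adjusted p = 0.000167). It was 256 ± 35.1 CPM at day 8 (-2.63 ± 0.30 against day 0, edgeR adjusted p = 4.46e-05). Between day 4 and day 8 the difference of -0.42 ± 0.29 did not pass the test (edgeR adjusted p = 0.291), and it was 0.082 without day 4 replicate 2.

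Pdgfra (ENSMUSG00000029231), the receptor most used to select these precursors, stood at 585, 703 and 725 CPM at day 0. Its day 4 libraries held 314, 692 and 386 CPM, and its day 8 libraries 160, 202 and 285 CPM. Replicate 2 of day 4 lay within the range of day 0 while the other day 4 libraries lay below it, and all day 8 libraries lay below all others. The day 4 difference of -0.53 ± 0.29 did not pass the test (edgeR adjusted p = 0.146), and without day 4 replicate 2 it was -0.93 and passed (edgeR adjusted p = 0.00329). The means were 671 ± 75.5, 464 ± 201 and 216 ± 63.3 CPM (SD, n = 3) at days 0, 4 and 8. Pdgfra was lower at day 8 than at day 0 by a log2 fold change of -1.64 ± 0.30 (edgeR adjusted p = 0.000824). It was also lower at day 8 than at day 4 (-1.11 ± 0.30, edgeR adjusted p = 0.0196). The latter call was lost without replicate 1 of day 8 (-0.94, adjusted p = 0.0771), without its replicate 2 (-1.06, adjusted p = 0.0685) and in a fit of only those groups (adjusted p = 0.0524). It was -0.70 without day 4 replicate 2 (adjusted p = 0.0284).

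The ratio of Pdgfra to Pdgfrb counts within a library does not depend on the scaling between libraries. It was 0.372, 0.456 and 0.440 at day 0, 1.30, 1.27 and 1.60 at day 4, and 0.641, 0.901 and 0.969 at day 8. The groups did not overlap, and day 4 replicate 2, which stood apart for each gene, had a ratio close to that of replicate 1. The geometric means were 0.421, 1.38 and 0.824 (n = 3 each). The 3 days differed in an exact two-sided permutation test (sum of squares between days, 1680 arrangements) (p = 0.00357, the smallest that these arrangements can give; adjusted p = 0.0107 over the 3 ratios tested). The ratio shows unequal change of the receptors, and its absolute value depends on the length of each coding sequence.

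**Figure D2:**
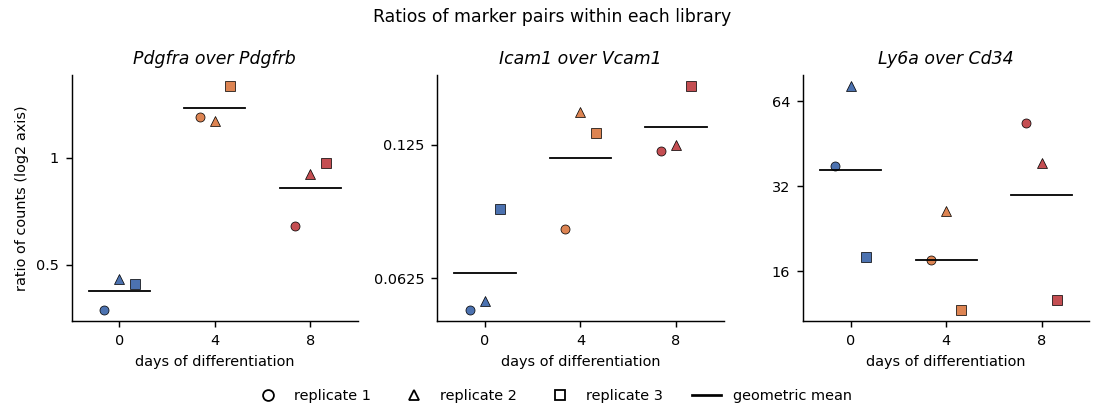
Ratio of counts within each library (log2 axis) for 3 pairs of genes against day of differentiation, with 1 symbol per library and a line at the geometric mean of 3 libraries. The Pdgfra to Pdgfrb ratio separates the 3 days, with 0.372 to 0.456 at day 0 and 1.27 to 1.60 at day 4, whereas the Ly6a to Cd34 ratio spans overlapping ranges at all days.

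Procr (ENSMUSG00000027611), a membrane receptor that binds protein C, was not called at day 4 and was low at day 8. It stood at 11.3, 11.0 and 9.83 CPM at day 0, at 8.32, 16.1 and 9.39 CPM at day 4, and at 1.67, 2.54 and 4.48 CPM at day 8. The day 0 and day 4 libraries overlapped, and all day 8 libraries lay below them. The day 4 difference was 0.07 ± 0.33 (edgeR adjusted p = 0.86). Its sign turned under scaling by library totals (-0.075), by the upper quartile (-0.052) and without day 4 replicate 2 (-0.27). From 10.7 ± 0.777 and 11.3 ± 4.23 CPM at days 0 and 4 it fell to 2.90 ± 1.44 CPM at day 8 (SD, n = 3). The log2 fold changes at day 8 were -1.89 ± 0.35 against day 0 (edgeR adjusted p = 0.000897) and -1.96 ± 0.35 against day 4 (edgeR adjusted p = 0.00342).

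The adhesion receptors Vcam1 and Icam1, which bind integrins of other cells, were low by day 4 and stayed low. Vcam1 (ENSMUSG00000027962) stood at 564, 592 and 520 CPM at day 0, at 66.7, 130 and 61.7 CPM at day 4 and at 51.3, 50.2 and 97.1 CPM at day 8. The lowest day 0 library was far above the highest later one. Its mean fell from 559 ± 36.3 to 86.0 ± 37.8 and 66.2 ± 26.8 CPM (SD, n = 3). Among the 10 genes this was the largest day 4 change, at -2.70 ± 0.34 (edgeR adjusted p = 9.83e-05), and the day 8 change against day 0 was -3.08 ± 0.34 (edgeR adjusted p = 3.51e-05). The difference between day 8 and day 4 was -0.38 ± 0.32 (edgeR adjusted p = 0.391), and 0.043 without day 4 replicate 2. Without that library and day 8 replicate 3 it was -0.34 and passed (adjusted p = 0.0195).

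Icam1 (ENSMUSG00000037405), whose promoter is shown above with its kB sequence, stood at 29.9, 32.9 and 46.6 CPM at day 0. It stood at 5.38, 19.2 and 8.21 CPM at day 4 and at 6.23, 6.28 and 16.5 CPM at day 8. Day 4 replicate 2 and day 8 replicate 3 were the highest libraries of their days, and both lay below all day 0 libraries. Icam1 fell from 36.4 ± 8.90 to 10.9 ± 7.29 CPM at day 4 (SD, n = 3; log2 fold change -1.74 ± 0.49, edgeR adjusted p = 0.0125). At day 8 it was at 9.67 ± 5.93 CPM (-1.91 ± 0.50 against day 0, edgeR adjusted p = 0.00642). Without day 4 replicate 2 the day 4 change was -2.42, and without day 8 replicate 3 the day 8 change was -2.53. The difference between day 8 and day 4, -0.18 ± 0.49 (edgeR adjusted p = 0.808), ranged from -0.81 without day 8 replicate 3 to 0.51 without day 4 replicate 2. The ratio of Icam1 to Vcam1 counts had geometric means of 0.0641, 0.117 and 0.137 at days 0, 4 and 8, and the 3 days did not differ past the threshold (exact permutation test, p = 0.0571, adjusted p = 0.0857).

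Cd34 (ENSMUSG00000016494), a sialomucin of blood, vessel and stromal progenitors, was highest at day 4. It stood at 6.0, 2.45 and 8.34 CPM at day 0, at 12.6, 20.4 and 21.6 CPM at day 4, and at 2.01, 2.54 and 9.88 CPM at day 8. Every day 4 library lay above all others, and the spread within day 0 and within day 8 was several-fold. Its means were 5.59 ± 2.97, 18.2 ± 4.89 and 4.81 ± 4.40 CPM (SD, n = 3). Cd34 rose at day 4 (log2 fold change 1.70 ± 0.59, edgeR adjusted p = 0.0319) and fell from day 4 to day 8 (-1.92 ± 0.60, edgeR adjusted p = 0.0349). Its call was lost when day 0 replicate 1 (1.76, adjusted p = 0.0735), day 0 replicate 2 (1.34, adjusted p = 0.1) or day 4 replicate 3 (1.56, adjusted p = 0.082) was left out.

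The call for the fall of Cd34 after day 4 was lost without day 0 replicate 1, day 4 replicate 3, day 8 replicate 1 or day 8 replicate 2 (adjusted p = 0.0534, 0.0829, 0.107 and 0.116), or in a fit of only those groups (adjusted p = 0.0518). Without day 8 replicate 3 it was -3.00. Against day 0, the day 8 difference was -0.22 ± 0.60 (edgeR adjusted p = 0.755), and without day 8 replicate 3 it was -1.29 and passed (adjusted p = 0.0364). That difference took the opposite sign without day 0 replicate 3 (0.18), day 8 replicate 1 (0.16) or day 8 replicate 2 (0.10).

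Ly6a (ENSMUSG00000075602) encodes SCA1, a protein tethered to the outer membrane by a glycosylphosphatidylinositol (GPI) anchor. Its counts were 227, 178 and 150 CPM at day 0, 221, 534 and 252 CPM at day 4, and 108, 98.4 and 125 CPM at day 8. Day 4 replicate 2 had more than any other library, the other day 4 libraries lay near the highest day 0 library, and the day 8 libraries lay below all others. The means were 185 ± 39.04, 336 ± 173 and 110 ± 13.6 CPM (SD, n = 3). Ly6a was lower at day 8 than at day 4 (-1.60 ± 0.31, edgeR adjusted p = 0.00483) under every alternative run, with log2 fold changes of -1.83 to -1.10.

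The day 4 rise of Ly6a (0.86 ± 0.31, edgeR adjusted p = 0.0338) was called under 11 of 18 alternatives. It was 0.36 without day 4 replicate 2 (adjusted p = 0.0795), 0.84 without day 0 replicate 2 (adjusted p = 0.0898) and 0.73 without day 0 replicate 3 (adjusted p = 0.116). It was also lost under scaling by library totals (0.71, adjusted p = 0.0766) or the upper quartile (0.74, adjusted p = 0.06), in a fit of only those groups (adjusted p = 0.0586) and with a replicate block (0.80, adjusted p = 0.0644). The day 8 difference from day 0 (-0.74 ± 0.31) did not pass the test (edgeR adjusted p = 0.0532) and did so under 8 of 18 alternatives, among them DESeq2 (adjusted p = 0.031). The ratio of Ly6a to Cd34 counts ranged from 17.9 to 72.7 at day 0, 11.7 to 26.2 at day 4 and 12.7 to 53.7 at day 8, and did not differ between days past the threshold (exact permutation test, p = 0.364, adjusted p = 0.364).

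Cd55 (ENSMUSG00000026399) encodes decay-accelerating factor, another GPI-anchored protein, which limits complement on the cell's own surface. It stood at 9.84, 7.52 and 10.3 CPM at day 0, 3.49, 6.33 and 3.41 CPM at day 4 and 2.40, 3.18 and 4.84 CPM at day 8. All later libraries lay below all day 0 libraries. Cd55 fell from 9.22 ± 1.49 to 4.41 ± 1.66 CPM at day 4 (SD, n = 3; log2 fold change -1.06 ± 0.31, edgeR adjusted p = 0.0136). At day 8 it was at 3.47 ± 1.25 CPM (-1.41 ± 0.31 against day 0, edgeR adjusted p = 0.00257). Leaving out replicate 1 of day 4 ended the day 4 call (-0.92, adjusted p = 0.0509), and so did leaving out replicate 3 of that day (-0.90, adjusted p = 0.0556). The difference of day 8 from day 4 was -0.34 ± 0.31 (edgeR adjusted p = 0.426), and 0.0083 without day 4 replicate 2.

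Dpp4 (ENSMUSG00000035000), a membrane-bound dipeptidyl peptidase, was thinly counted, with 24 to 83 counts per library over all days. It stood at 1.25, 2.23 and 2.29 CPM at day 0, 0.698, 0.771 and 1.27 CPM at day 4 and 1.23, 1.02 and 1.60 CPM at day 8. Day 0 replicate 1, with 41 counts, had an exact 95% Poisson interval of 0.896 to 1.69 CPM, and day 4 replicate 3, with 45 counts, one of 0.926 to 1.70 CPM, so these libraries of different days overlapped. These intervals cover counting error only. Dpp4 fell from 1.92 ± 0.585 to 0.912 ± 0.311 CPM at day 4 (SD, n = 3; log2 fold change -1.07 ± 0.34, edgeR adjusted p = 0.0219). That call was lost without day 0 replicate 2 (-0.96, adjusted p = 0.0703), day 0 replicate 3 (-0.93, adjusted p = 0.0785) or day 4 replicate 1 (-0.91, adjusted p = 0.0754). At day 8 Dpp4 was at 1.28 ± 0.293 CPM, and neither the difference from day 0 (-0.59 ± 0.34, edgeR adjusted p = 0.145) nor that from day 4 (0.49 ± 0.35, edgeR adjusted p = 0.313) passed.

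Pi16 (ENSMUSG00000024011), a peptidase inhibitor of the cysteine-rich secretory protein family, was nearly absent from the day 8 libraries. Day 0 gave 148, 110 and 242 counts. Day 4 gave 97, 458 and 141, and day 8 only 1, 4 and 16. On the CPM scale these were 4.51, 3.40 and 6.68 at day 0, 2.82, 12.6 and 3.98 at day 4, and 0.0279, 0.107 and 0.448 at day 8, with exact 95% Poisson intervals at day 8 of 0.000707 to 0.156, 0.0291 to 0.274 and 0.256 to 0.727. Even the highest of these intervals ended below every library of the other days. The log2 fold change at day 8 was -4.63 ± 0.80 against day 0 (edgeR adjusted p = 0.000581) and -5.04 ± 0.81 against day 4 (edgeR adjusted p = 0.002), the largest falls among the 10 genes.

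Leaving out single libraries moved the size of the Pi16 fall and not its call. Without day 8 replicate 3, which held 16 of the 21 day 8 counts, the log2 fold changes were -6.07 and -6.50, and without day 4 replicate 2 that against day 4 was -4.11. The day 4 difference from day 0 was 0.41 ± 0.59 (edgeR adjusted p = 0.574), and -0.51 without day 4 replicate 2. The means were 4.86 ± 1.67, 6.47 ± 5.35 and 0.194 ± 0.223 CPM at days 0, 4 and 8 (SD, n = 3).

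**Figure D3:**
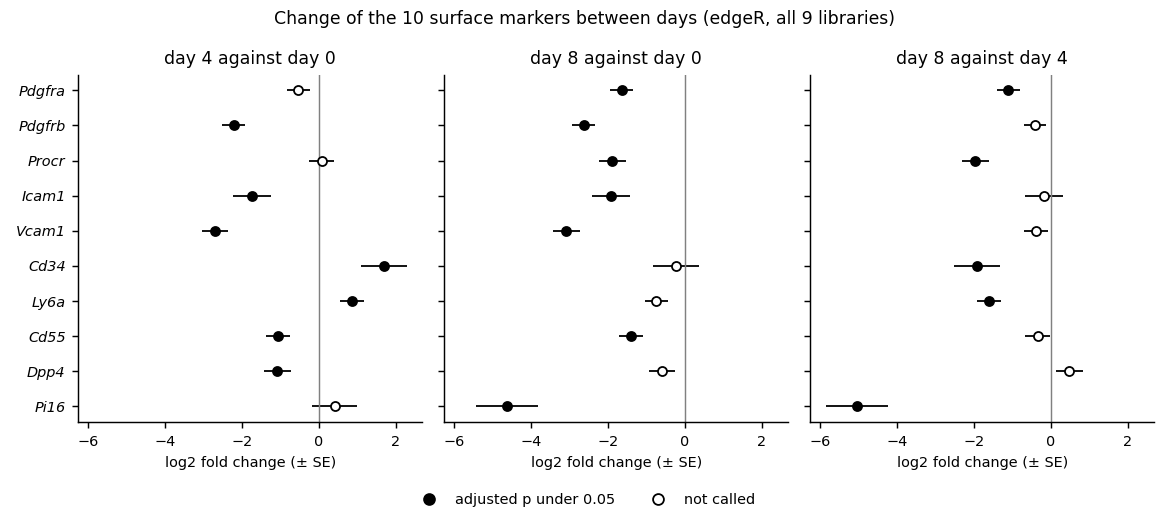
Fitted log2 fold change of each gene (horizontal axis, edgeR on all 9 libraries) in the 3 comparisons of days, with bars of 1 SE; filled points have an adjusted p under 0.05. Pdgfrb and Vcam1 lie near their day 8 position already at day 4, Pdgfra, Procr and Pi16 are called at day 8 only among the comparisons with day 0, and Cd34 and Ly6a are the 2 genes called to the right of 0.

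By their courses the genes called at day 4 were thus not all those called at day 8. Pdgfrb, Vcam1, Icam1 and Cd55 were lower than day 0 at both later days, and for none of them was the step from day 4 to day 8 called. Pdgfra, Procr and Pi16 were called lower at day 8 against day 0 and against day 4 and were not called at day 4. Cd34 and Ly6a were called higher at day 4 and lower again at day 8 than at day 4. Dpp4 alone was called at day 4 and in neither comparison with day 8. These groups describe calls, and a gene called in 1 comparison and not in another is not thereby shown to differ between them.

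The libraries that stood apart did so for most of the markers. In day 4 replicate 2, 8 of 10 genes had their highest value of that day, where 39.9% of all tested genes did. Relative to the mean of the other day 4 libraries it held 3.71 times as much Pi16, 2.82 times as much Icam1, 2.26 times as much Pdgfrb and Ly6a, 2.02 times as much Vcam1 and 1.98 times as much Pdgfra. Cd55 and Procr stood at 1.83 and 1.82 times, Cd34 at 1.19 times and Dpp4 at 0.784 times. Over all tested genes the median of this ratio was 0.987, and 15.9% of genes reached 1.5. For Cd34 and Dpp4 the highest library of day 4 was replicate 3. The higher level in day 4 replicate 2 was not particular to these markers. Of the other antigens used to sort progenitors, listed below, all but Nt5e, Mcam and Entpd1 were also highest in it within day 4. All listed fat cell genes had their lowest value of that day in it.

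In day 8 replicate 3, 10 of 10 genes had their highest value of that day, against 41.5% of all tested genes. The ratios to the mean of the other day 8 libraries were 6.64 for Pi16, 4.34 for Cd34, 2.64 for Icam1, 2.13 for Procr and 1.91 for Vcam1. They were 1.74 for Cd55, 1.57 for Pdgfra, 1.42 for Dpp4, 1.24 for Pdgfrb and 1.21 for Ly6a, with a median of 1.01 over all tested genes, of which 12.3% reached 1.5. Of the other sorting antigens listed below, all but Mcam were also highest in day 8 replicate 3 within that day. At day 0, replicate 3 was the highest library for 7 of 10 genes, against 34.7% of all tested genes. What set these libraries apart was not tested.

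**Figure D4:**
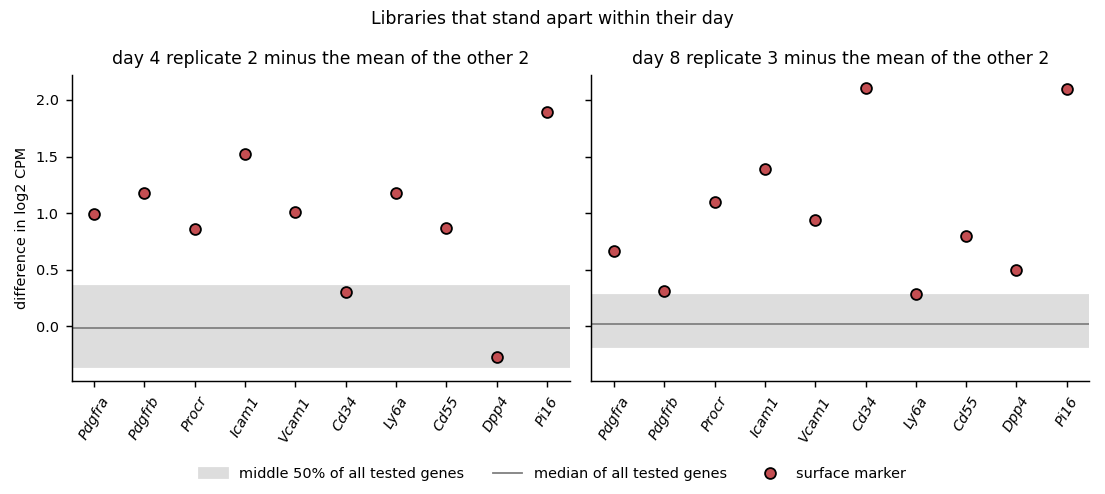
Difference in log2 CPM between day 4 replicate 2 (left) or day 8 replicate 3 (right) and the mean of the other libraries of the same day, for each gene; the grey band spans all tested genes from the lower to the upper quartile and the line is their median. Pi16, Icam1, Vcam1, Procr, Cd55 and Pdgfra lie well above the band on both sides. Pdgfrb and Ly6a do so at day 4 and lie near its upper edge at day 8. Cd34 and Dpp4 lie above the band at day 8 only, and Dpp4 is the only gene below 0, at day 4.

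Of 4 genes for ligands of the PDGF receptors 3 were tested. Against day 0, 2 of the 3 were lower and 0 higher at day 4, where 28.4% of all tested genes were lower and 29.8% higher. At day 8, 3 were lower and 0 higher, where 33.5% of all tested genes were lower and 34.2% higher. The counts of 0 higher were also 0 at an unadjusted p under 0.05. All 4, Pdgfb included, were tested and lower at both days in the fit without the libraries that stood apart. Pdgfd, which acts on PDGFRβ, stood at 78.5, 90.1 and 88.8 CPM at day 0, at 9.39, 25.9 and 10.9 CPM at day 4 and at 15.2, 14.2 and 28.9 CPM at day 8. Its libraries of days 4 and 8 lay below those of day 0, with log2 fold changes of -2.48 ± 0.39 at day 4 (edgeR adjusted p = 0.000459) and -2.14 ± 0.39 at day 8 (edgeR adjusted p = 0.000759). Pdgfa, which acts on PDGFRα, fell at day 4 (-1.50 ± 0.20, edgeR adjusted p = 0.000133) and was higher at day 8 than at day 4 (0.62 ± 0.20, edgeR adjusted p = 0.0368). Pdgfc was called lower at day 8 (-1.15 ± 0.18, edgeR adjusted p = 0.000265), as Pdgfra was, and stood at -0.30 ± 0.17 at day 4 (adjusted p = 0.156).

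Of 7 tested adhesion partners, the integrin chains and selectin that bind VCAM1, ICAM1 or CD34, 4 were lower and 0 higher at each later day against day 0, and 0 were called between day 8 and day 4 by edgeR (0 at an unadjusted p under 0.05, and 1 lower without the libraries that stood apart). Of all tested genes, 28.4% were lower and 29.8% higher at day 4 than at day 0, and 33.5% and 34.2% at day 8. From day 4 to day 8, 17.1% were lower and 14.7% higher. Integrin α9, encoded by Itga9, pairs with β1 and binds VCAM1. It stood at 38.8 to 44.7 CPM at day 0, 5.50 to 12.2 CPM at day 4 and 5.27 to 8.93 CPM at day 8. Its log2 fold changes were -2.39 ± 0.30 and -2.68 ± 0.31 (edgeR adjusted p = 0.000106 and 4.11e-05). Itgb1, the β1 chain, fell by 1.10 at day 4 and by 1.49 at day 8 on the log2 scale (edgeR adjusted p = 0.000951 and 0.000105). Itga4, the α4 chain, stood at -0.999 and -1.06 (edgeR adjusted p = 0.00731 and 0.00436). The leukocyte integrin chain Itgb2, a partner of ICAM1, was lower by smaller amounts (-0.54 and -0.66, edgeR adjusted p = 0.0187 and 0.00532).

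Of 9 tested genes of the protein C pathway and of complement, 3 were higher and 3 lower at day 4, and 3 higher and 4 lower at day 8, against day 0. These counts lay near the shares of all tested genes, 29.8% higher and 28.4% lower at day 4, and 34.2% and 33.5% at day 8. The genes that moved parted by role. Thbd, thrombomodulin, which works with PROCR to activate protein C, was lower at both days (-2.09 ± 0.29 and -2.73 ± 0.30, edgeR adjusted p = 0.000194 and 3.09e-05). F2r, the thrombin receptor PAR1, was lower too (-2.65 ± 0.20 and -2.15 ± 0.19, edgeR adjusted p = 3.55e-06 and 9.17e-06). Unlike Procr, both were called at day 4 already. Proc, which encodes protein C itself, was not tested.

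The complement genes C3 and Cfd rose. C3, the protein on which CD55-regulated convertases act, stood at 16.1 to 34.4 CPM at day 0 and at 582 to 1289 CPM at day 4 (log2 fold change 5.43 ± 0.52, edgeR adjusted p = 1.71e-05). Cfd, complement factor D or adipsin, is a product of fat cells and rose by 7.93 ± 0.33 at day 4 and 7.92 ± 0.33 at day 8 (edgeR adjusted p = 1.35e-07 and 1.5e-07). Cd55 was thus lower at days when C3 and Cfd were higher. Without the libraries that stood apart, 3 were higher and 5 lower at day 4, with the same counts as above at day 8.

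Among 19 tested relatives of the 10 genes in their protein families, 3 were higher and 7 lower at day 4, and 2 higher and 11 lower at day 8, against day 0. Over all tested genes 29.8% were higher and 28.4% lower at day 4, and 34.2% and 33.5% at day 8. Without the libraries that stood apart 20 were tested, with 2 higher and 9 lower at day 4 and 2 higher and 11 lower at day 8. Podxl2, a sialomucin related to Cd34, was lower at both days (-1.29 ± 0.24 and -2.46 ± 0.25, edgeR adjusted p = 0.00118 and 2.22e-05), unlike Cd34 at day 4. Crispld2, of the same protein family as Pi16, stood at 70.2 to 118 CPM at day 0, 16.4 to 54.7 CPM at day 4 and 2.37 to 7.17 CPM at day 8, with log2 fold changes of -1.73 ± 0.49 at day 4 and -4.52 ± 0.57 at day 8 (edgeR adjusted p = 0.0124 and 7.27e-05). Glipr2, a further relative of Pi16, stood at -1.79 ± 0.27 and -2.26 ± 0.28 (edgeR adjusted p = 0.000361 and 6.75e-05). Dpp9, a soluble relative of Dpp4, was lower by 0.33 and 0.88 (edgeR adjusted p = 0.0256 and 8.12e-05).

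Ly6c1 is a close relative of Ly6a, and was singled out after its values were seen. It stood at 58.6, 40.5 and 37.9 CPM at day 0, at 78.3, 177 and 84.7 CPM at day 4 and at 43.3, 38.7 and 56.5 CPM at day 8. As for Ly6a, day 4 replicate 2 held the most. The log2 fold changes were 1.31 ± 0.31 at day 4 and -1.30 ± 0.31 from day 4 to day 8 (edgeR adjusted p = 0.00492 and 0.0125). How reads that match several genes were counted is not given in the sources used here, so the counts of Ly6a and of its relatives are uncertain where their sequences match. Cd55b, a copy of Cd55, had 0 counts in all 9 libraries.

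A list of 16 other antigens used to sort mesenchymal and adipose progenitors was counted beside the 10 genes. Against day 0, 9 were lower and 3 higher at day 4, with a median log2 fold change of -0.81, and 11 were lower and 2 higher at day 8, with a median of -1.65. Background shares were 28.4% lower and 29.8% higher at day 4, and 33.5% and 34.2% at day 8. Without the libraries that stood apart these counts were 12 and 4 at day 4 and 12 and 2 at day 8. Cd44, the hyaluronan receptor, stood at 217 to 231 CPM at day 0, 24.8 to 76.8 CPM at day 4 and 23.2 to 33.2 CPM at day 8, with all day 0 libraries above all later ones, as for Vcam1. Its log2 fold changes were -2.37 ± 0.38 and -3.01 ± 0.39 (edgeR adjusted p = 0.00046 and 8.82e-05).

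Nt5e and Alcam went the other way. Nt5e encodes CD73, an enzyme that makes adenosine outside the cell and a marker of mesenchymal stromal cells. It stood at 0.731, 0.836 and 0.911 CPM at day 0, at 25.5, 4.16 and 15.8 CPM at day 4 and at 11.4, 16.5 and 16.8 CPM at day 8. Day 4 replicate 2 was the lowest of the later libraries and still above all day 0 libraries, and the log2 fold changes were 4.19 ± 0.59 and 4.16 ± 0.59 (edgeR adjusted p = 0.00021 and 0.000158). Alcam, the adhesion molecule CD166, rose by 1.31 ± 0.20 at day 4 and 2.12 ± 0.20 at day 8 (edgeR adjusted p = 0.000315 and 1.27e-05). Mcam, the adhesion molecule CD146, was singled out after its values were seen: it was called higher at day 4 (1.32 ± 0.18, edgeR adjusted p = 0.000178) and lower from day 4 to day 8 (-1.60 ± 0.18, edgeR adjusted p = 0.000455), as Cd34 and Ly6a were.

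**Figure D5:**
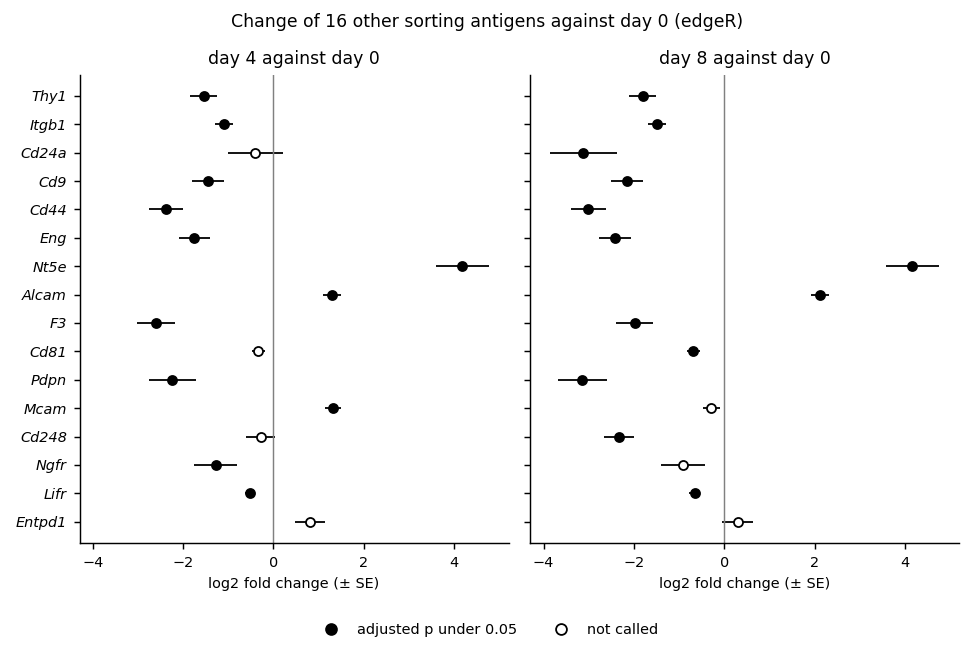
Fitted log2 fold change (horizontal axis, edgeR, bars of 1 SE) of 16 further sorting antigens at day 4 (left) and day 8 (right) against day 0; filled points have an adjusted p under 0.05. Most filled points lie left of 0, and Nt5e and Alcam lie right of 0 at both days.

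The markers of precursor populations other than the 10 genes were counted in the same way. All tested genes had shares of 28.4% lower and 29.8% higher at day 4, and 33.5% and 34.2% at day 8, against day 0. Of 6 tested genes of the interstitial population that DPP4, PI16 and CD55 mark, 5 were lower and 0 higher at day 4 and 6 were lower at day 8 than at day 0, and all 6 were lower at both days without the libraries that stood apart. Creb5, a transcription factor, stood at -2.69 ± 0.30 at day 4 (edgeR adjusted p = 5.23e-05), and Sema3c, a secreted guidance protein, at -1.65 ± 0.24 (edgeR adjusted p = 0.000267). Dact2, which modulates Wnt signals, and Il13ra1, a cytokine receptor chain, stood at -3.53 ± 0.48 and -1.77 ± 0.31 (edgeR adjusted p = 0.00018 and 0.000812). Bmp7, the other gene of the list, did not pass the filter.

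Of 7 genes of the committed preadipocytes that ICAM1 marks, 6 were higher and 0 lower at day 4, and 5 higher and 1 lower at day 8, against day 0 (5 and 0, then 5 and 1, without the libraries that stood apart). Of these, Fabp4, Cd36, Pparg and Lpl are also fat cell genes, and they rose 3.06 to 8.05 on the log2 scale at both days while Icam1 fell. Of 5 genes of the population marked by F3 (CD142), 2 were higher and 2 lower at day 4 and 2 higher and 3 lower at day 8 (2 and 3 at both days without the libraries that stood apart). For both lists the background shares were 29.8% higher and 28.4% lower at day 4, and 34.2% and 33.5% at day 8. The lipid exporter Abcg1 rose (3.49 ± 0.22 at day 4, edgeR adjusted p = 1.16e-06), as did Fmo2, a monooxygenase (2.41 ± 0.26, edgeR adjusted p = 3.82e-05). F3 itself, tissue factor, fell (-2.59 ± 0.42, edgeR adjusted p = 0.000483), as did Clec11a, a growth factor (-2.86 ± 0.33, edgeR adjusted p = 5.79e-05).

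Of 11 inflammatory genes, many of them targets of NF-kB as Icam1 and Vcam1 are, 3 were higher and 6 lower at day 4, and 4 higher and 5 lower at day 8, against day 0, with the same counts without the libraries that stood apart. Over all tested genes the shares were 29.8% higher and 28.4% lower at day 4, and 34.2% and 33.5% at day 8. Nfkbia, an inhibitor of NF-kB that is itself a target, stood at 22.0 to 23.9 CPM at day 0, 74.3 to 77.3 CPM at day 4 and 29.9 to 33.7 CPM at day 8. It rose by 1.71 ± 0.09 at day 4 and was still 0.48 ± 0.09 above day 0 at day 8 (edgeR adjusted p = 4.71e-07 and 0.000735). Sod2, a mitochondrial superoxide dismutase, rose by 3.09 ± 0.18 and 3.52 ± 0.18 (edgeR adjusted p = 7.68e-07 and 4.71e-07). Tnfaip3, an inhibitor of NF-kB signals, was higher at both days (2.44 ± 0.31 and 1.16 ± 0.31, edgeR adjusted p = 0.000113 and 0.0069), and the NF-kB subunit Relb was higher at day 8 (1.19 ± 0.16, edgeR adjusted p = 0.000119). The chemokine Ccl2, singled out after its values were seen, fell at both days (-3.94 ± 0.57 and -3.24 ± 0.54, edgeR adjusted p = 0.000243 and 0.000469), so the list moved both ways.

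Several of the 10 genes are also made by cells other than fat cell precursors, and markers of such cells moved between days. Endothelial cells carry Cd34, Procr, Icam1 and Vcam1, and the summed level of 8 endothelial markers was 19.9 to 27.8 CPM at day 0, 6.09 to 20.2 CPM at day 4 and 3.50 to 8.34 CPM at day 8. Of 5 that were tested, 1 was lower at day 4 and 4 were lower at day 8 than at day 0, and 4 were lower at each day without the libraries that stood apart. Among all tested genes 28.4% were lower at day 4 and 33.5% at day 8. Most of the day 0 sum was Tek, at 11.9 to 20.1 CPM at day 0 and 1.497 to 4.84 CPM at day 8 (log2 fold change -2.36 ± 0.55, edgeR adjusted p = 0.00332), while Pecam1, a defining endothelial marker, stood at 0.901 to 1.67 CPM over all 9 libraries. None of the 8 was at 0 in all libraries.

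Mural cells carry Pdgfrb, and 8 mural markers summed to 75.2 to 103 CPM at day 0, 141 to 165 CPM at day 4 and 145 to 170 CPM at day 8. The median log2 fold change of the 7 tested was -0.42 at day 4 and -0.28 at day 8, so the sum, in which a gene with many counts weighs most, and the median differ in sign. Of these 7, 2 were higher and 1 lower at day 4, and 3 higher and 1 lower at day 8 (3 and 3, then 3 and 2, without the libraries that stood apart). The shares of all tested genes were 29.8% higher and 28.4% lower at day 4, and 34.2% and 33.5% at day 8. Cspg4, the proteoglycan NG2, rose by 1.13 ± 0.24 and 2.00 ± 0.24 (edgeR adjusted p = 0.00243 and 5.74e-05), and Kcnj8, a potassium channel of pericytes, fell at both days from its day 0 levels of 0.279 to 0.442 CPM (-3.49 ± 0.63 at day 4, edgeR adjusted p = 0.00098). Mcam was also called higher at day 4 (1.32, edgeR adjusted p = 0.000178). So were Des and Notch3 at day 8 (1.67 and 0.63, edgeR adjusted p = 0.000795 and 0.0301). Rgs5 and Abcc9, further pericyte genes, stood at -1.53 and -0.88 at day 4 and did not pass the test (edgeR adjusted p = 0.109 and 0.132).

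The summed level of 8 white blood cell markers was 52.7 to 98.7 CPM at day 0, 51.0 to 62.1 CPM at day 4 and 21.5 to 47.8 CPM at day 8, with 0 of 6 tested genes called by edgeR at day 4 (1 lower at an unadjusted p under 0.05) and 2 lower at day 8, Lyz2 and Csf1r. Without the libraries that stood apart 1 was lower at day 4 and 3 at day 8. Background shares of genes called lower were 28.4% at day 4 and 33.5% at day 8. Lyz2, lysozyme of macrophages, stood at 23.5 to 58.3 CPM at day 0 and 1.06 to 15.4 CPM at day 8. The leukocyte antigen Ptprc (CD45) stood at 12.1 to 18.3 CPM in all libraries. Of 5 mesothelial markers 2 were tested, with 0 called in any comparison by edgeR on all libraries (1 lower from day 4 to day 8 at an unadjusted p under 0.05). Without the libraries that stood apart 1 was higher at day 4 than at day 0 and 2 were lower from day 4 to day 8. In the fit of all libraries, 29.8% of all tested genes were higher at day 4 than at day 0, and 34.2% at day 8. From day 4 to day 8, 17.1% were lower and 14.7% higher in that fit. The part of these other cells in the values of the 10 genes was not tested.

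For each of the 10 genes, the genes with the most similar course over the 9 libraries were found among 10454 genes that averaged 100 counts or more in a library. Likeness was the root mean square difference of log2 CPM after each gene was centred on its own mean, so that a smaller value is closer. Vcam1 was nearest to Armcx2 (0.111) and to Cnn3, calponin 3 (0.135), and Pdgfrb to Cald1, caldesmon (0.118), and Marcks, an actin-binding kinase substrate (0.134). Cd55 was nearest to Nectin3, an adhesion protein (0.119), and to Srebf2, a regulator of sterol synthesis (0.148), and Pdgfra to Crybg3 (0.141).

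The courses of the other genes were less closely matched. Procr was nearest to Col5a1, a collagen chain (0.206), and Ugt1a7c (0.217), Ly6a to Slc43a3 (0.222) and Add3 (0.256), Icam1 to Smarca1 (0.255) and Tlr2, a receptor for bacterial lipoproteins (0.258), and Dpp4 to Bpgm (0.266) and H2-DMb1 (0.281). Cd34 was nearest to Dpt, dermatopontin of the matrix (0.397), and Cdkn1c, a cell cycle inhibitor (0.523). For Pi16 the nearest gene, Gas7, was at 0.952, the largest distance to a nearest gene among the 10, and genes with fewer counts were not searched. Within the 10 genes the closest pair was Pdgfrb and Vcam1 (0.298), followed by Pdgfra and Cd55 (0.352), Pdgfra and Procr (0.428) and Pdgfrb and Icam1 (0.446).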

How the data were processed

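Values are counts per gene, raw as deposited, in 9 libraries; per the submitters' processing notes reads were trimmed with cutadapt, aligned with HISAT2 to GRCm39 and counted with featureCounts. Not given in the sources used here are tool versions, the strand setting and how multiply mapped reads were treated. Since matched RNA was not analysed here, a count reflects both how much of an mRNA there was and how densely ribosomes covered it.

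The 10 genes and 14 further lists were chosen with earlier results of these data known. Counts were filtered (filterByExpr, minimum count 10), TMM-scaled and fitted in edgeR 4.0.16 (R 4.3.3; quasi-likelihood F test), with all 9 libraries in 1 fit and day as its only term. P-values were adjusted (Benjamini-Hochberg) over 14714 genes and called under 0.05. Values are mean ± SD with n = 3. SE follow from the F statistic. Alternatives used DESeq2 1.42.0, limma-voom (limma 3.58.1), other scalings, filters and libraries. The code was tested on simulated data. From each list the text names up to 4 genes with the smallest adjusted p, and others as chosen after their values were seen; likeness names the 2 nearest genes; not all of these are reported here. Promoters come from GRCm38.p6 and were matched by symbol, with a window of 250 bases.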

Additional observations from a re-analysis of the deposited data

How the results depend on the processing

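Each value of the 10 genes was recomputed under 18 alternatives. Of 540 such values 489 kept their direction and side of the threshold, 23 kept only the direction and lost the call, 13 gained it and 15 changed sign, all from values that were not called. Procr at day 4 changed sign under library totals (-0.075) and the upper quartile (-0.052), and Pi16 and Procr did so at day 4 without both libraries that stood apart (-0.51 and -0.27). The other sign changes came with 1 library left out, over ranges of -1.29 to 0.18 for Cd34 at day 8 against day 0, -0.51 to 0.77 for Pi16 and -0.27 to 0.26 for Procr at day 4. From day 4 to day 8 these ranges were -0.62 to 0.082 for Pdgfrb, -0.66 to 0.0083 for Cd55, -0.81 to 0.51 for Icam1 and -0.76 to 0.043 for Vcam1. Leaving out each library in turn gave 4 to 7 called genes at day 4 (4 without day 0 replicate 2), 7 to 8 at day 8 against day 0 and 3 to 5 at day 8 against day 4 (3 without day 8 replicate 1 or 2), and 3 in a fit of only these groups; the cause was not tested. With the replicate block 6, 7 and 5 genes were called in the 3 comparisons. Same-numbered libraries correlated at -0.200 to 0.188 and the labels state no pairing, so the numbers were not taken to pair samples. Each day 0 library did correlate best with the day 8 library of its own number (0.121, 0.0710 and 0.0855 for replicates 1 to 3). Scaling by library totals moved the median of all genes to -0.17 at day 4 and to 0.12 from day 4 to day 8, and the upper quartile to -0.14 at day 4 and -0.11 at day 8. With library totals 65.9% of the calls between day 4 and day 8 were higher, against 46.2%. The log2 change of the Pdgfra to Pdgfrb ratio at day 4 was 1.61 to 1.78 without each library in turn. Depth limits Dpp4 and Pi16 most.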
